A study of Saccharomyces cerevisiae with 8 samples.

Results

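The transcripts described here are the 8 protein-coding transcripts (ORF-Ts, annotated with their untranslated ends) of *SEN1* (YLR430W), *PCF11* (YDR228C), *SSU72* (YNL222W), *PTI1* (YGR156W), *SWD2* (YKL018W), *REF2* (YDR195W), *SYC1* (YOR179C) and *GLC7* (YER133W). They were chosen by gene name as factors of RNA polymerase II termination. The table counted 10054 transcripts, of which 5753 were ORF-Ts, and all 8 were among them with reads in every library. Noncoding and antisense transcripts that share bases with them were read from the same table as context.

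Total RNA was compared between wild-type *Saccharomyces cerevisiae* (WT, 4 libraries labelled as preps 1 to 4) and a strain lacking *RRP6* (*rrp6Δ*, 4 libraries labelled in the same way), which the submitters describe as biological replicates. Both strains are isogenic to BY4741, a haploid laboratory strain of mating type a. The *rrp6Δ* cells come from 1 strain of the yeast knockout collection that lacks the nuclear exonuclease Rrp6 throughout growth. No drug or other treatment was applied, and both strains were grown in rich medium to the same optical density.

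Sen1 is an RNA helicase and part of the Nrd1-Nab3-Sen1 (NNS) complex, which ends transcription of short noncoding RNAs such as cryptic unstable transcripts (CUTs) and snoRNAs and passes many of them to the nuclear exosome, to which Rrp6 belongs. Pcf11 is a subunit of cleavage factor IA that binds the C-terminal domain (CTD) of RNA polymerase II and acts in termination of mRNA genes and of some snoRNA genes. The APT complex, named for its association with Pta1, is a part of the cleavage and polyadenylation factor (CPF) that holds the phosphatases Ssu72 and Glc7 and the subunits Pti1, Ref2, Swd2 and Syc1, and it is known for its role at the 3' ends of snoRNAs.

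Total counts ranged from 6904004 to 12666126 reads per library. Normalized counts are CPM values of the library size scaled by TMM over all transcripts. *RRP6* itself lay between 94.2 and 151 normalized counts in WT and between 1.53 and 3.66 in *rrp6Δ*, with a log2 fold change of -5.37 ± 0.29 (SE), and every library matched its label. The 5 marker genes of mating type a summed to between 576 and 822 normalized counts in WT and between 570.4 and 908 in *rrp6Δ*, and the 2 markers of alpha cells that the table lists summed to between 5.50 and 10.1 and between 5.55 and 7.70. Of these 7 genes, *MFA2* (a-factor, log2 fold change -0.91 ± 0.33) was called lower and the others were not called. *MFA2* was not called with TMM factors from ORF-Ts only (-0.60, FDR = 0.203), and with the prep number as a block *BAR1* (the protease that cleaves alpha-factor, -0.85 ± 0.19) was also called lower. ORF-Ts had a median log2 fold change of -0.32 between *rrp6Δ* and WT. A transcript was called when its fold change reached 1.5 with a p-value below 0.05 and an FDR no higher than 0.1, and 120 ORF-Ts (2.09%) were called higher and 820 (14.3%) lower in *rrp6Δ*. With TMM factors from ORF-Ts only, the median was -0.02, and 219 (3.81%) were higher and 153 lower. Both scalings are given below where they differ in a call or a sign. In bulk RNA, fewer cells with a transcript and less of it per cell cannot be told apart.

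Sequences are shown for the loci where a row called higher on the opposite strand shares annotated bases with one of the 8, *GLC7* on chromosome V and *SSU72* on chromosome XIV. They were read from the RefSeq R64 genome, which is the sacCer3 build of the counts. CUT568 is transcribed from the minus strand across the end of the first *GLC7* exon (123 bases) and the start of its intron (182 bases). Its first 300 of 305 bases (chrV:432554-432853, minus strand) are printed in its own direction. Capitals mark the letters GTAA and GTAG, the DNA form of the motifs bound by Nrd1, and TCTT, the DNA form of the motif bound by Nab3.
CUT568: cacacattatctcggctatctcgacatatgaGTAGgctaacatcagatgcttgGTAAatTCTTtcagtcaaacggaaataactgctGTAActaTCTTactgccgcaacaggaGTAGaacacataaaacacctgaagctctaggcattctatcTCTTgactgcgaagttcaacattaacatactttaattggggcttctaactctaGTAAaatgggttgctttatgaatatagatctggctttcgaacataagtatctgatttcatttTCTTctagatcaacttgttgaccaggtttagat
This stretch holds 5 matches to the Nrd1 motifs and 4 to the Nab3 motif, none of which overlap each other, and on the other strand 1 and 0. Among 518 CUTs of at least 300 bases, the first 300 bases held a median of 3 Nrd1 and 4 Nab3 motifs. Of them, 17.6% held at least as many Nrd1 motifs as CUT568 and 51.4% at least as many Nab3 motifs. The sense strand at the end of *GLC7* exon 1 (chrV:432642-432701, plus strand) is shown because CUT568 crosses this boundary, with the first 6 bases of the intron in capitals.
*GLC7*: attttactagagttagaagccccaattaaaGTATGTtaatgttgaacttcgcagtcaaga
The 525-base intron lies between the coding parts of exon 1 (432495 to 432671) and exon 2 (433197 to 433958).

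The other locus is the region between *SSU72* and *SNR19*, the gene of the U1 snRNA, which converge. The extended transcript (ET) of U1 begins where the mature RNA row ends and runs into the last 46 bases of the *SSU72* transcript. Its first 200 bases (chrXIV:229927-230126, minus strand), which end before *SSU72* is reached, are printed in the direction of U1 with the same motifs in capitals.
*SNR19* ET: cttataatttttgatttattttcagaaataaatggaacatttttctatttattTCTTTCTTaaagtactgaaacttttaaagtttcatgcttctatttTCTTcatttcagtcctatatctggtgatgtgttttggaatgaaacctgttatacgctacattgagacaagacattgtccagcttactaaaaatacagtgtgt
No Nrd1 motif and 3 Nab3 motifs were found on this strand, and 2 and 1 on the other. Of 56 ETs with at least 200 bases, 82.1% held an Nrd1 motif in the first 200 bases and 41.1% held at least 3 Nab3 motifs. These matches describe the letters in the windows and are not evidence of binding.

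None of the 8 transcripts passed the thresholds between *rrp6Δ* and WT in edgeR's quasi-likelihood test, beside 2.09% of ORF-Ts called higher and 14.3% called lower. DESeq2 and edgeR's exact test also called 0 of 8. In the quasi-likelihood test 1 of the 8, *SSU72*, had an unadjusted p-value under 0.05. Their median log2 fold change was 0.04, with 4 above and 4 below 0, and all 8 lay above the ORF-T median of -0.32. The 95% interval of the fold change ran from 0.532 to 1.49 for *SWD2* and from 0.665 to 1.19 for *GLC7*, and that of *SSU72*, from 1.01 to 2.11, was the only one of the 8 that left out a fold of 1. With TMM factors from ORF-Ts only, the median of the 8 was 0.35, and *SSU72* and *REF2* were called higher beside 3.81% of all ORF-Ts. *SEN1*, *SWD2*, *SYC1* and *GLC7* changed from below to above 0 under that scaling.

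**Figure D1:**
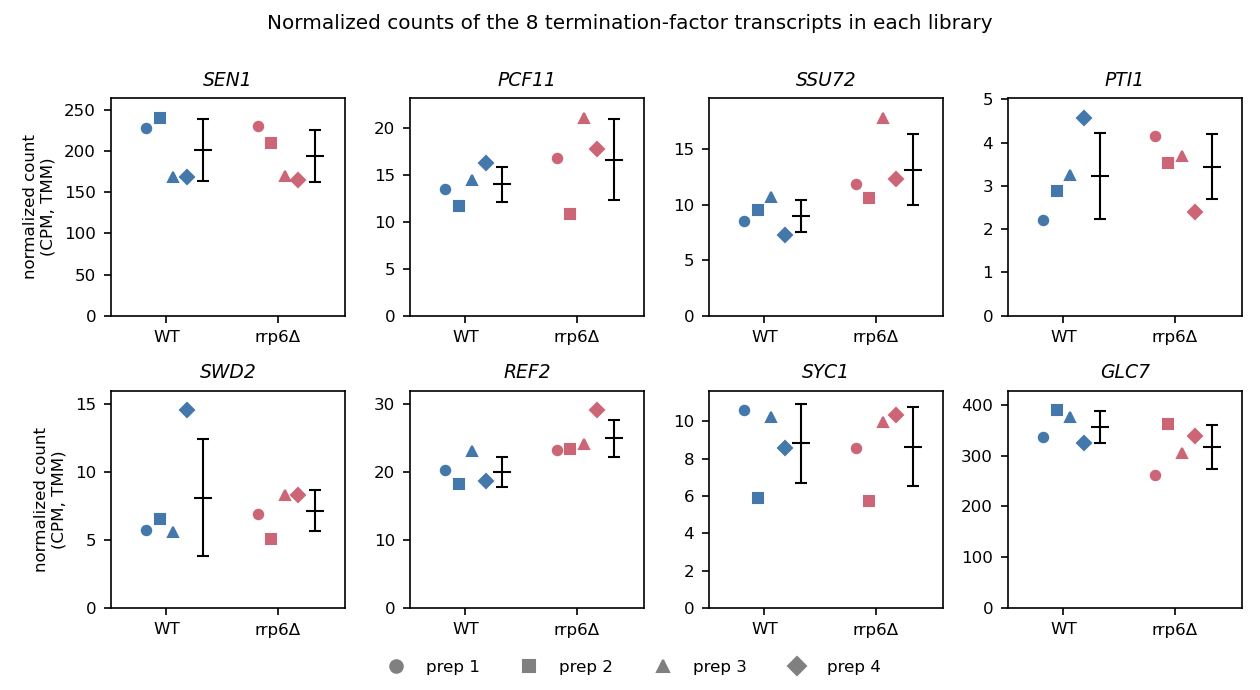
Normalized counts (CPM, y axis, from 0) of the 8 transcripts in each library, WT in blue and *rrp6Δ* in red, with 1 symbol per prep number and the mean ± SD of 4 libraries as bars. *REF2* is the single panel in which all *rrp6Δ* points (23.2 to 29.1) lie above all WT points (18.2 to 23.1), and WT prep 4 of *SWD2* (14.6) stands apart.

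*SEN1*, the helicase, was the longest transcript of the group (7081 bases, chrXII:993136-1000217, plus strand) and was measured on 1143 to 3787 reads per library. Its normalized count was 229, 241, 169 and 169 in WT preps 1 to 4 and 231, 209.5, 170.4 and 165 in *rrp6Δ* preps 1 to 4. The strains overlapped, and in both of them preps 1 and 2 lay above preps 3 and 4. It changed by a log2 fold of -0.06 ± 0.21 (SE; 95% interval -0.51 to 0.39, FDR = 0.839), which was within the spread between replicates. With TMM factors from ORF-Ts only it was 0.25 (-0.21 to 0.72).

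*PCF11* (chrIV:921859-923883, minus strand) encodes the CTD-binding subunit of cleavage factor IA. It had 13.5, 11.7, 14.5 and 16.3 normalized counts in WT preps 1 to 4 and 16.8, 10.8, 21.1 and 17.8 in *rrp6Δ*. Prep 2 was the lowest library of each strain, and the *rrp6Δ* value of that prep lay below all WT values. Its log2 fold change was 0.25 ± 0.24 (95% interval -0.27 to 0.78, FDR = 0.434). With TMM factors from ORF-Ts only, the fold change was 1.47 (1.04 to 2.08) with FDR = 0.103, just short of both the fold and the FDR threshold. No annotated transcript shared a base with *PCF11* on either strand.

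*SSU72* (chrXIV:229057-229762, plus strand), which encodes the APT phosphatase that acts on serines of the CTD, had the highest fold change of the 8. Its normalized count was 8.54, 9.55, 10.7 and 7.28 in WT preps 1 to 4 and 11.8, 10.6, 17.8 and 12.4 in *rrp6Δ*. The *rrp6Δ* value was higher in 4 of 4 preps, and only prep 2 of *rrp6Δ* (10.6) fell below the highest WT library (10.7). The fitted log2 fold change was 0.55 ± 0.25 (95% interval 0.02 to 1.08) with FDR = 0.112 in edgeR's quasi-likelihood test, short of both the FDR and the fold threshold, and the two-sided exact permutation test gave p = 0.0571. Of 17 alternative settings 5 called it higher, with FDR values from 0.0024 to 0.323 over all of them. Under TMM factors from ORF-Ts only the log2 fold change was 0.85 (0.31 to 1.39), and without *rrp6Δ* replicate 2 it was 0.64 and was called. DESeq2 gave FDR = 0.0769 with a log2 fold change of 0.57, under the fold threshold. The fit with the prep number as a block gave FDR = 0.0303 with 0.53 (0.13 to 0.93), also under the fold threshold.

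*GLC7* (chrV:432426-434185, plus strand) encodes the catalytic subunit of type 1 protein phosphatase, which also acts outside APT in glycogen metabolism, glucose repression and mitosis. Its normalized count was 336, 389, 377 and 324 in WT preps 1 to 4 and 261, 363, 306 and 338 in *rrp6Δ*. The strains overlapped, with *rrp6Δ* lower in 3 of 4 preps. The change on the log2 scale was -0.17 ± 0.19 (95% interval -0.59 to 0.25, FDR = 0.511), and with TMM factors from ORF-Ts only it was 0.14 (-0.29 to 0.57). The read numbers, 2273 to 4281 per library, were the highest of the group.

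*REF2* (chrIV:848364-850279, plus strand), whose protein is an RNA-binding APT subunit, was the single transcript of the 8 whose libraries did not overlap between the strains. It had 20.3, 18.2, 23.1 and 18.7 normalized counts in WT preps 1 to 4 and 23.2, 23.4, 24.2 and 29.1 in *rrp6Δ*. Such a separation upwards was found for 1.63% of all ORF-Ts, and downwards for 13.8% of them and for 0 of the 8. The difference between the lowest *rrp6Δ* and the highest WT library was small. This gave a log2 fold change of 0.31 ± 0.19 (95% interval -0.10 to 0.73, FDR = 0.225). The exact permutation test gave p = 0.0286, the smallest that 70 unpaired arrangements allow. With TMM factors from ORF-Ts only, the log2 fold change was 0.62 (0.22 to 1.01) and the transcript was called, as in 3 of 17 settings, with FDR values from 0.0047 to 0.355 over all of them. A short ORF-T on the same strand, YDR194W-A, covers its first 194 bases, so that reads there cannot be assigned. YDR194W-A had 5 to 15 reads in WT libraries and 8 to 41 in *rrp6Δ* (log2 fold change 0.82 ± 0.49, FDR = 0.223). When all its reads were taken off *REF2*, a choice made after seeing the data, the *rrp6Δ* libraries (21.1 to 27.1) still lay above the WT libraries (17.2 to 20.9).

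*PTI1* (chrVII:800412-801876, plus strand) encodes an APT subunit that resembles a subunit of the mammalian cleavage stimulation factor. It was the least covered of the 8, with 22 to 68 reads per library. Its normalized count was 2.20, 2.89, 3.26 and 4.57 in WT preps 1 to 4 and 4.15, 3.53, 3.70 and 2.39 in *rrp6Δ*. The ranges of the strains overlapped almost entirely. It changed by a log2 fold of 0.11 ± 0.32 (95% interval -0.58 to 0.81, FDR = 0.797).

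*SWD2* (chrXI:404072-405220, plus strand) encodes a WD-repeat protein that is shared between APT and the Set1 histone methyltransferase complex. It had 5.75, 6.54, 5.63 and 14.6 normalized counts in WT preps 1 to 4 and 6.96, 5.09, 8.31 and 8.33 in *rrp6Δ*. WT prep 4 stood apart from the other WT libraries and set the sign of the estimate. Its log2 fold change was -0.17 ± 0.34 (95% interval -0.91 to 0.57, FDR = 0.715), and without WT replicate 4 it was 0.34 and was not called.

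*SYC1* (chrXV:671575-672435, minus strand) encodes a small APT subunit that resembles the C-terminal part of the CPF endonuclease Ysh1. It had 10.6, 5.91, 10.2 and 8.56 normalized counts in WT preps 1 to 4 and 8.54, 5.72, 9.97 and 10.3 in *rrp6Δ*. Prep 2 was the lowest library of each strain. The fitted log2 fold change was -0.03 ± 0.28 (95% interval -0.63 to 0.58, FDR = 0.945), the closest to 0 of the 8.

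**Figure D2:**
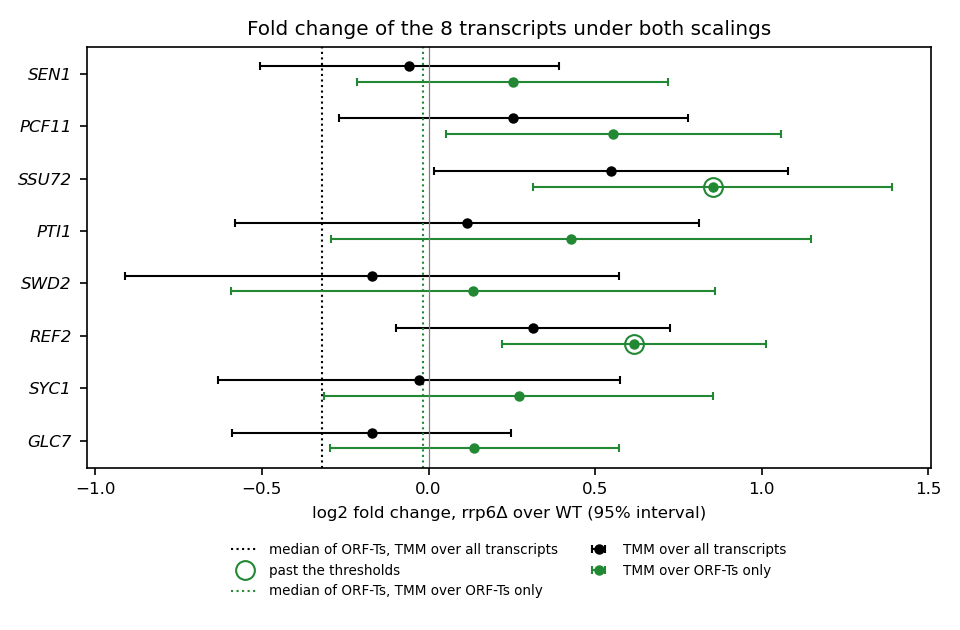
Log2 fold changes of *rrp6Δ* over WT with 95% intervals (x axis) for each of the 8 transcripts (y axis), scaled by TMM over all transcripts (black) or over ORF-Ts only (green), with dotted lines at the median of 5753 ORF-Ts under each scaling. All 8 points lie to the right of the median of their own scaling, -0.32 or -0.02, and circles mark *SSU72* (0.85) and *REF2* (0.62), called under the ORF-T scaling.

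Ratios between 2 transcripts of the same library do not depend on the scaling. Of the 28 pairs among the 8 transcripts, 2 had ratios that did not overlap between the strains, and *GLC7* was the denominator of both. How often other pairs of ORF-Ts separate in this way was not counted, and the 28 pairs share genes. The log2 ratio of *SSU72* to *GLC7* counts was -5.29, -5.34, -5.13 and -5.46 in WT preps 1 to 4 and -4.46, -5.09, -4.10 and -4.77 in *rrp6Δ*. It was thus 0.70 higher in *rrp6Δ*, and higher in 4 of 4 preps. The log2 ratio of *REF2* to *GLC7* ran from -4.41 to -4.02 in WT and from -3.95 to -3.49 in *rrp6Δ*, 0.49 higher and likewise in 4 of 4 preps. Both gave p = 0.0286 in the two-sided exact permutation test, the smallest that 70 unpaired arrangements allow. After Benjamini-Hochberg adjustment over the 28 pairs the value was 0.4. With only 2 pairs at the smallest p-value, no adjusted value could fall below 0.05. The adjustment therefore cannot decide whether these ratios differed.

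Levels of the 8 genes were compared per kilobase of annotated transcript. The annotated length of *GLC7* includes its 525-base intron, so its level per kilobase and its share are too low where the RNA is spliced. In WT, *GLC7* had 203 ± 17.8 (SD, n = 4) normalized counts per kilobase and *SEN1* 28.5 ± 5.38, beside a median over ORF-Ts of 22.0. These were followed by *SSU72* with 12.8 ± 2.04, *REF2* with 10.5 ± 1.15, *SYC1* with 10.3 ± 2.47, *SWD2* with 7.07 ± 3.76, *PCF11* with 6.91 ± 0.948 and *PTI1* with 2.21 ± 0.679. Except for *GLC7* (above 93.5% of ORF-Ts) and *SEN1* (above 58.3%), the members thus lay in the lower part of the distribution, and *PTI1* lay above 3.98% of ORF-Ts. The WT libraries of neighbours in this order were separate between *GLC7* and *SEN1*, between *SEN1* and *SSU72*, and between *PCF11* and *PTI1*, and they overlapped at the other 4 steps. In *rrp6Δ* the order was the same except that *PCF11* (8.22 ± 2.12) came before *SWD2* (6.25 ± 1.33). There, *SSU72* had 18.7 ± 4.54 and *SEN1* 27.4 ± 4.48 normalized counts per kilobase, and the ranges of these genes overlapped in *rrp6Δ* while they did not in WT. *GLC7* made up 72.1% ± 2.00 of the summed level per kilobase of the 8 in WT and 67.5% ± 4.65 in *rrp6Δ*.

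On the strand opposite *GLC7*, CUT568 rose about 10.7-fold in *rrp6Δ* (95% interval 4.56 to 25.3). It had 1, 4, 7 and 3 reads in WT preps 1 to 4 and 41, 39, 88 and 79 in *rrp6Δ*, with the strains fully apart. The change on the log2 scale was 3.43 ± 0.57 with FDR = 0.00111, and CUT568 was called under each of 17 alternative settings (log2 fold change 3.02 to 4.01, FDR 9.78e-08 to 0.00492). Among the CUTs of the table, 81.3% were called higher. The antisense row of the *GLC7* coding region, AS_YER133W (1464 bases), rose by the same log2 fold change of 3.43. It is not a separate measurement, since it held CUT568 and, beyond the reads of CUT568, 0 reads in every library but *rrp6Δ* prep 1, which had 1. The authors kept only antisense rows that changed in these samples, and 55.4% of the antisense rows were called higher. Of the 8 transcripts only *GLC7* has such a row.

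A longer Nrd1-unterminated transcript (NUT), NUT0982, covers CUT568 and runs on past the start of *GLC7* (chrV:431788-432856, minus strand). It had 8.97, 9.30, 8.29 and 13.0 normalized counts in WT preps 1 to 4 and 11.1, 13.8, 18.3 and 27.0 in *rrp6Δ*. The *rrp6Δ* library was higher in 4 of 4 preps, and only prep 1 of *rrp6Δ* lay within the WT range. This gave a log2 fold change of 0.83 ± 0.29 (FDR = 0.0512), past the thresholds, beside 64.7% of NUTs called higher. The call was lost at an FDR of 0.05 and without WT replicate 1 (log2 fold change 0.82), WT replicate 3 (0.76), *rrp6Δ* replicate 3 (0.81) or *rrp6Δ* replicate 4 (0.59). Once the reads of CUT568 were taken off, the remaining reads of NUT0982 differed by 0.34 on the log2 scale (exact permutation p = 0.314), and were higher in *rrp6Δ* in 3 of 4 preps. These antisense reads were few beside the sense reads. CUT568 had 0.140 ± 0.103 (SD, n = 4) reads per 100 *GLC7* reads in WT and 1.62 ± 0.677 in *rrp6Δ*. The exact permutation p was 0.0286, the smallest possible, and 0.143 after adjustment over 5 such ratios. With only 1 ratio at the smallest p-value, no adjusted value could fall below 0.05, so the adjustment cannot decide. *GLC7* itself was not called in edgeR's quasi-likelihood test.

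**Figure D3:**
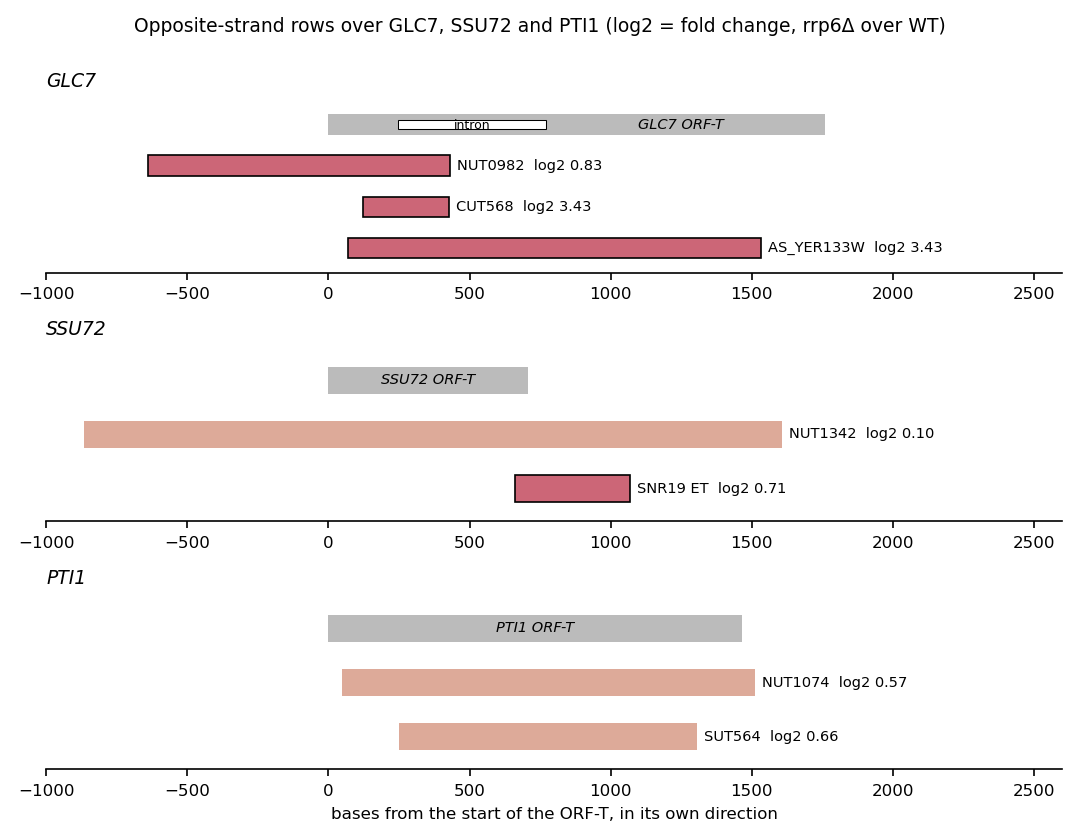
Positions of opposite-strand transcripts along *GLC7*, *SSU72* and *PTI1* (x axis, bases from the start of each ORF-T in its own direction), with grey bars for the ORF-Ts, a white bar for the *GLC7* intron, dark red outlined bars for transcripts called higher and pale bars for those not called. CUT568 lies over the end of exon 1 and the start of the *GLC7* intron. The annotated U1 ET reaches the last 46 bases of *SSU72*, though nearly all of its reads appear to touch the U1 row.

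At the *SSU72* locus, the ET row of U1 rose 1.63-fold (95% interval 1.16 to 2.31). It had 153, 247, 173 and 147 normalized counts in WT preps 1 to 4 and 247, 356, 246 and 327 in *rrp6Δ*. The strains met only at WT prep 2, whose value was slightly above that of *rrp6Δ* prep 3, and *rrp6Δ* was higher in 4 of 4 preps. It changed by a log2 fold of 0.71 ± 0.23 (FDR = 0.035), and it was called under each of the 17 alternative settings (FDR 9.77e-05 to 0.0909). Among the 78 ETs, 62.8% were called higher. Mature U1 had a log2 fold change of 0.10 ± 0.31 (FDR = 0.813). NUT1342 covers the whole of *SSU72* and nearly all of U1. If no read touched only the U1 bases outside NUT1342, between 0.0378% and 0.129% of the NUT1342 reads lay outside the U1 row. The log2 fold change of NUT1342, 0.10, is therefore that of U1. The reads that remained after U1 was taken off numbered 17 to 62 in WT libraries and 40 to 104 in *rrp6Δ*, a log2 difference of 0.77 (exact permutation p = 0.171). They were higher in *rrp6Δ* in 4 of 4 preps, a pairing that the permutation test does not use. The ET lies wholly within NUT1342, so on the same condition these reads are the most ET reads that can lie off the U1 row. They came to between 1.17% and 3.15% of the ET reads of a library. On that condition, nearly all ET reads were also counted on the mature U1 row, which shares no base with *SSU72*. The rise of the ET was then not measured over the bases of *SSU72*.

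Opposite *PTI1*, 2 annotated transcripts overlap each other, NUT1074 (96.8% of the bases of *PTI1*) and the stable unannotated transcript (SUT) SUT564 (72.2%). SUT564 had 4.23, 1.89, 6.22 and 2.28 normalized counts in WT preps 1 to 4 and 4.15, 3.43, 6.12 and 9.48 in *rrp6Δ*. The strains overlapped and only prep 4 of *rrp6Δ* exceeded the WT range. Its log2 fold change was 0.66 ± 0.43 (FDR = 0.256), beside 28.6% of SUTs called higher, and that of NUT1074 was 0.57 ± 0.41 (FDR = 0.307). Of the 17 alternative settings, 2 called SUT564 higher (FDR 0.0416 to 0.529 over all of them). NUT1074 was called higher in 1 of the 17 (FDR 0.0597 to 0.616). Between 3 and 9 reads of NUT1074 per library lay outside SUT564. Unlike at *GLC7*, the opposite strand was as deeply read as the sense strand, with 125 ± 77.6 reads of SUT564 per 100 reads of *PTI1* in WT and 189.6 ± 141 in *rrp6Δ* (exact permutation p = 0.4).

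**Figure D4:**
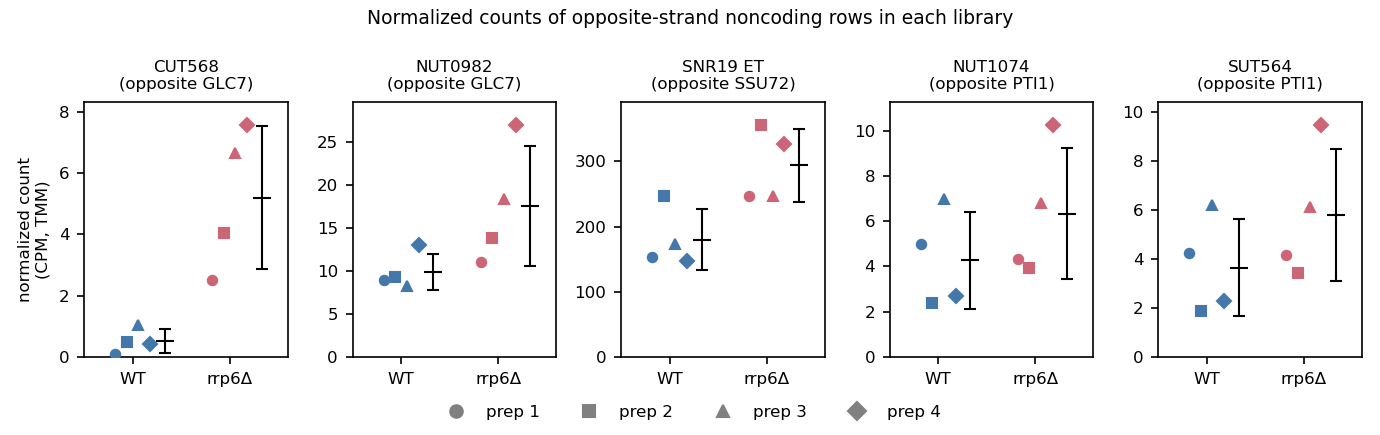
Normalized counts (CPM, y axis, from 0) of the 5 noncoding transcripts opposite *GLC7*, *SSU72* and *PTI1* in each library, WT in blue and *rrp6Δ* in red, with the mean ± SD of 4 libraries as bars. The strains do not overlap for CUT568 and overlap for the other 4.

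The genes around these factors in the same pathway were read in lists of known subunits. Of the 9 other CPF subunits, 0 passed the thresholds in edgeR's quasi-likelihood test, in DESeq2 or in edgeR's exact test. In the quasi-likelihood test 1 of them (*PAP1*, poly(A) polymerase) had an unadjusted p-value under 0.05. Their log2 fold changes ran from -0.49 to -0.18 with a median of -0.30, close to the ORF-T median of -0.32. *PTA1*, the scaffold to which APT binds, had -0.49 ± 0.28 (FDR = 0.202), and *YSH1*, the endonuclease, had -0.19 ± 0.23 (FDR = 0.529). Of the 4 other cleavage factor I subunits, 0 were called by the same tools. In the quasi-likelihood test 0 had an unadjusted p-value under 0.05, and their median was 0.06. *HRP1* was called higher with TMM factors from ORF-Ts only.

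Of 6 genes of the NNS complex without Sen1 and of Rat1-dependent termination, 1 was called higher and 0 lower, beside 2.09% and 14.3% of ORF-Ts. *NRD1*, the RNA-binding partner of Sen1, had 12.9, 24.0, 13.8 and 34.7 normalized counts in WT preps 1 to 4 and 34.3, 30.04, 35.5 and 38.6 in *rrp6Δ*, and was higher in *rrp6Δ* in 4 of 4 preps. WT prep 4 lay within the *rrp6Δ* range. The fitted log2 fold change was 0.70 ± 0.29 (FDR = 0.0919). Leaving out any 1 of 7 libraries, all but WT replicate 4, lost the call, with log2 fold changes from 0.54 to 1.12 over the 8. An FDR of 0.05 lost it too. DESeq2, edgeR's exact test and the fit with the prep number as a block kept it. With TMM factors from ORF-Ts only it was also called (1.00, FDR = 0.0186). *NAB3*, the other RNA-binding partner, had -0.61 ± 0.33 (FDR = 0.177).

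Of 11 genes of CTD kinases, phosphatases and the CTD isomerase, 1 was called lower, *ESS1*, the prolyl isomerase of the CTD, with -0.70 ± 0.22 (FDR = 0.0281) and no overlap between the strains. These counts and the next 2 stand beside 14.3% of ORF-Ts called lower. Of 7 subunits of the Set1 complex, which shares Swd2, *SDC1* was called lower with -0.64 ± 0.25 (FDR = 0.0728), and of 15 regulators of Glc7, *BNI4*, which directs Glc7 to the bud neck, was called lower with -0.75 ± 0.27 (FDR = 0.0582). With TMM factors from ORF-Ts only, none of *ESS1* (-0.40), *SDC1* (-0.34) and *BNI4* (-0.45) passed, and 0 genes of these 3 lists were called. *ESS1* was called without each library in turn (-0.82 to -0.61). The call of *SDC1* was lost without WT replicates 1 or 3 or *rrp6Δ* replicates 1, 2 or 3 (-0.69 to -0.51 over the 8 libraries), and that of *BNI4* without WT replicates 3 or 4 or *rrp6Δ* replicates 1, 2 or 4 (-0.91 to -0.54). With the prep number as a block, 3 Glc7 regulators were called lower, *BNI4* together with *SDS22* and *YPI1*, which are regulatory partners of nuclear Glc7, beside 1117 ORF-Ts (19.4%) called lower in that fit. Against these lists the 8 transcripts had a median of 0.04, the other CPF subunits -0.30, the cleavage factor I subunits 0.06, the genes of the NNS complex and Rat1-dependent termination -0.09, the CTD enzymes -0.26, the Set1 complex -0.12 and the Glc7 regulators -0.33. With TMM factors from ORF-Ts only, these medians were, in the same order, 0.35, -0.0056, 0.37, 0.22, 0.049, 0.19 and -0.033. The sign thus depended on the scaling for the NNS and Rat1 genes, the CTD enzymes and the Set1 complex. Differences between lists were not tested.

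**Figure D5:**
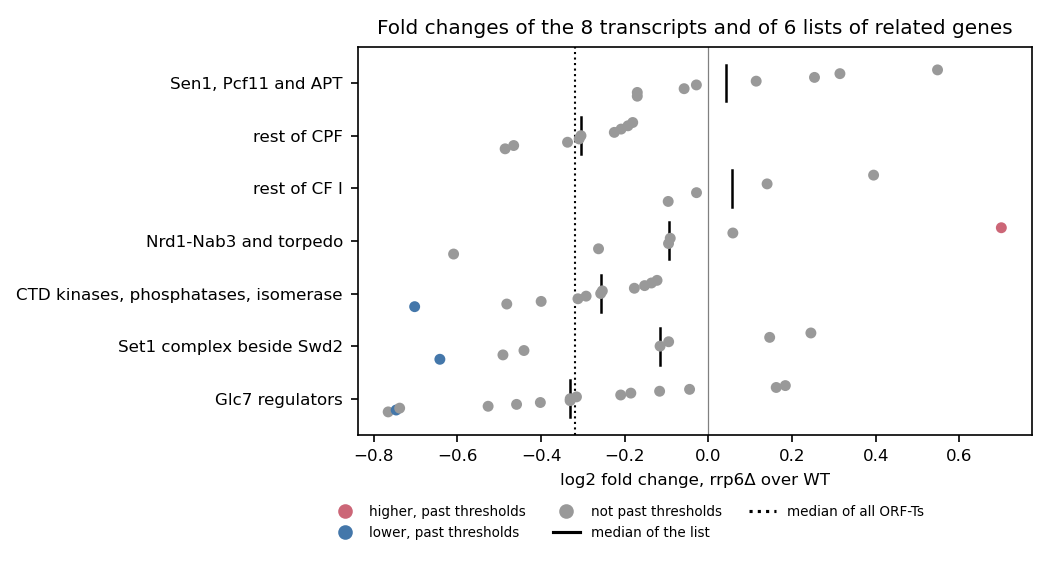
Log2 fold changes of *rrp6Δ* over WT (x axis) of single genes as points, in rows for the 8 transcripts and 6 lists of related genes (y axis), with red for called higher, blue for called lower and grey for not called, a bar at the median of each list and a dotted line at the ORF-T median of -0.32. The 8 transcripts hold no called gene, and the called genes are *NRD1* (0.70), *ESS1* (-0.70), *SDC1* (-0.64) and *BNI4* (-0.75).

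The ORF-Ts whose log2 normalized counts followed *SEN1* most closely over the 8 libraries, among 4470 with a mean count of at least 100, were *PCA1*, a cation-transporting ATPase (Pearson's r = 0.983), *KTR2*, a mannosyltransferase (r = 0.943), and *HRQ1*, a RecQ-type helicase (r = 0.935). Those closest to *GLC7* were *ERD2*, the receptor for proteins retained in the endoplasmic reticulum (r = 0.981), *EXP1*, a protein of the early secretory pathway (r = 0.972), and *EMP47*, a lectin-like membrane protein of the same pathway (r = 0.968). These correlations share the 8 libraries and their scaling and are descriptions. Among the 8 transcripts, r lay between -0.65 for *GLC7* and *PCF11* and 0.72 for *SYC1* and *PCF11*.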

How the data were processed

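After removal of rRNA, the authors read total RNA on a SOLiD instrument in single reads that keep the strand. The authors mapped the reads to sacCer3 with bfast, by a pipeline that discards rRNA and tRNA reads and uses splice junctions or by one that keeps them and maps to the genome alone, and which of these made the table is not given in the sources used here. The read count of each transcript in each library, obtained with bamutils, was deposited without normalization and is the value analysed here. The deposited normalized signal, which is the count divided by an effective library size from edgeR, was used only to read those sizes. The deposited log2 fold change, p-value and FDR of the authors' own comparison were not used. The rule for reads on several transcripts is not given in the sources used here. From the counts, a read appears to be counted on every annotated transcript that it touches.

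All 10054 transcripts entered a fit with edgeR 4.0.16 in R 4.3.3, with TMM factors over all transcripts, no filter on low counts, glmQLFit and glmQLFTest without covariates, and Benjamini-Hochberg adjustment over all transcripts. A call required a fold change of at least 1.5 with p below 0.05 and FDR no higher than 0.1, the thresholds of the study. The SE is the size of the log2 fold change divided by the square root of F. For single values, log2 values with 0.5 added were compared by exact two-sided permutation over 70 arrangements (Python 3.11.15, scipy 1.17.1). Normalized counts are CPM values of the TMM-scaled library size, and 3 counts correspond to between 0.183 and 0.444 of them. Lengths are annotated end minus start.

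The prep numbers appear to pair the libraries, a reading taken from the data and not stated in the labels beyond the shared number. After removal of the strain means, log2 values of 6563 transcripts with a mean count of at least 50 correlated at 0.506 to 0.657 between libraries of the same number and at -0.462 to 0.00867 between others. Deviations from a strain mean cancel over its 4 libraries, so positive values within numbers pull those between other libraries down. A fit with the number as a block was therefore run. The main fit and the exact permutation tests did not use the number. Their p-values treat the 8 libraries as unpaired and would not hold as given under pairing.

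The alternatives were DESeq2 1.42.0, library totals alone, TMM factors from ORF-Ts only, edgeR's filterByExpr, edgeR's exact test, an FDR of 0.05, the replicate block, and each of 8 libraries left out, and, chosen after seeing the data, the effective library sizes of the authors and the block joined with the scaling on ORF-Ts. The members, the lists of related genes, the markers and the tests were chosen with earlier results of these data known. Named were all 8 transcripts, *RRP6*, every transcript that shares bases with the 8, called genes of each list together with *PTA1*, *NRD1*, *NAB3* and *YSH1*, and the 3 ORF-Ts most like *SEN1* and *GLC7*. *PAP1*, *HRP1*, *SDS22*, *YPI1*, *BAR1*, CUT852 and the U1 row were picked with their values in view. The procedure was also run on simulated counts, drawn for each library without an effect of the prep number. That run does not test the fit under such an effect. No amino acid sequences were used.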

Additional observations from a re-analysis of the deposited data

Results flagged for a closer look

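In 38 groups of 4 libraries (8 transcripts and 11 that overlap them, in each strain), 4 held a library whose gap to the nearest other library exceeded the 95% critical value of Dixon's test for the range of the group, and chance gives about 1 such group in 20. *SWD2* in WT replicate 4 had 14.6 normalized counts, where the other WT libraries had 5.63 to 6.54. *REF2* in *rrp6Δ* replicate 4 had 29.1, where the others had 23.2 to 24.2. HCS1 (YKL017C), a DNA helicase gene that converges with *SWD2*, had 22.4 in *rrp6Δ* replicate 2, where the others had 38.8 to 42.1. CAB5 (YDR196C), a gene of coenzyme A synthesis that converges with *REF2*, had 24.0 in WT replicate 2, where the others had 36.4 to 38.1. Without these libraries none of the 8 calls changed except that *SSU72* was called higher without *rrp6Δ* replicate 2.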

How the results depend on the processing

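Scaling was the choice that moved most values. Shifting the ORF-T median by 0.30 (TMM factors from ORF-Ts only) or 0.36 (library totals alone) raised the members called higher to 2 under each, with log2 fold changes of 0.85 and 0.92 for *SSU72* and of 0.62 and 0.68 for *REF2*. The same settings turned *SEN1* (0.25 and 0.32), *SWD2* (0.13 and 0.14), *SYC1* (0.27 and 0.31) and *GLC7* (0.14 and 0.19) above 0, none of them called. ORF-Ts called higher numbered 219 and 222 and lower 153 and 85, where 120 and 820 were called. With the authors' effective library sizes *SSU72* was called (0.60), which made 1 member, and *SYC1* was 0.017. The replicate block alone changed no call of the 8 or of the noncoding transcripts over them. In that fit *SSU72* (0.53, FDR = 0.0303) passed the FDR threshold but not the fold threshold. The replicate block with TMM factors from ORF-Ts only called 2 members, *SSU72* (0.84) and *REF2* (0.62), gave 0.25 for *SEN1*, 0.21 for *SWD2*, 0.27 for *SYC1* and 0.13 for *GLC7*, and called 306 ORF-Ts higher and 279 lower. An FDR of 0.05 left 511 ORF-Ts lower.

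With each library left out in turn, *SEN1* ranged from -0.13 to 0.067, *PTI1* from -0.010 to 0.40, *SWD2* from -0.31 to 0.34, *SYC1* from -0.18 to 0.12 and *SSU72* from 0.37 to 0.65, and between 0 and 1 members were called higher. ORF-Ts called lower ranged from 389 (without *rrp6Δ* replicate 1) to 920, with 455 without WT replicate 4. The causes of these shifts beyond the scaling itself were not tested. Counts of 22 to 68 reads limit *PTI1* most.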

Other observations

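The convergent ORF-Ts that overlap members by their 3' ends did not pass the thresholds. *ATG23* (YLR431C), an autophagy gene that shares 84 bases with *SEN1*, had 18.1, 19.1, 12.9 and 14.0 normalized counts in WT preps 1 to 4 and 23.9, 36.3, 21.1 and 13.9 in *rrp6Δ*. Its log2 fold change was 0.57 ± 0.28 (FDR = 0.149), and 4 of 17 alternative settings called it higher (FDR 0.00275 to 0.429 over all of them). *HCS1*, which shares 96 bases with *SWD2*, had 0.23 ± 0.24 (FDR = 0.484), and *CAB5*, which shares 96 bases with *REF2*, had -0.36 ± 0.24 (FDR = 0.271).

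CUT852 lies 72 bases from *SYC1* on the same strand and was not called. It had 9, 15, 9 and 7 reads in WT preps 1 to 4 and 36, 14, 29 and 16 in *rrp6Δ*, with a log2 fold change of 0.60 ± 0.38 (FDR = 0.247) where 81.3% of CUTs were called higher.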
